A study of Mus musculus with 48 samples.

Results

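Reporter elements at the loci of Hmga2, Nfia and Prdm16 were examined, 11 of the 11709 elements of a massively parallel reporter assay in the embryonic mouse cortex. A reporter assay of this kind carries a pool of short DNA elements, each beside a reporter gene, into cells and reads the RNA made from each element relative to its delivered DNA. The loci were chosen by their place among temporal and glia-forming genes with reporter values of these data already known, and within each locus every element was taken by its coordinates alone. The activities are therefore given as descriptions, with no test. Of the 11 elements, 5 carried the class label E14 and 6 the class label Shadow. The E14 class held 931 elements and the Shadow class 903, and neither label is explained in the sources used here. Because E14 is also the name of an age, ages are written below as embryonic days.

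The plasmid library was electroporated in utero into the somatosensory cortex of C57BL/6JRj mice on embryonic day 12, 13, 14, 15 or 16, and cells were collected 24 h later, on days 13 to 17. Fixed cells were sorted into intermediate progenitors (IPC, positive for Tbr2, the product of Eomes) and neural stem cells (NSC, positive for Pax6). The 48 libraries came from 24 biological samples: 3 per cell type on days 14 and 15 and 2 on days 13, 16 and 17. A DNA library and an RNA library were made from every sample. All groups were of the same strain, and the labels name no mutant or treated animals. The deposited table has 10 columns, 5 days in IPC and 5 in NSC, with a single pooled value per element in each, and the 11 elements had a value in all 10. The spread between biological samples is therefore unknown, as is the read or barcode depth behind each value.

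Neural stem cells of the cortex first make neurons, partly through intermediate progenitors, and later make glia. Hmga2 encodes a chromatin protein that is abundant in young neural stem cells and declines as they age. Nfia encodes a nuclear factor I transcription factor that is switched on in progenitors and is needed for the start of glia formation. Prdm16 encodes a zinc finger chromatin regulator of radial glia that acts on enhancers and on the production of intermediate progenitors.

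Activity is given as the statistic of an element divided by the median of the 996 scrambled control elements in the same column, so that 1 is the level of the middle control. Means are taken on the scale log2(activity + 0.1), on which that middle control stands at 0.14. The controls set how large a single value has to be. The level that 2.5% of them exceeded, called the upper control limit below, lay between 3.03 (day 14) and 8.04 (day 13) in IPC and between 2.64 (day 17) and 13.3 (day 13) in NSC. The columns ranked elements only weakly alike. Across E14-class elements the median Spearman rho was 0.19 over the 10 pairs of IPC columns and 0.14 over the 10 pairs of NSC columns, and across scrambled controls it was 0.05 and 0.02. These are correlations across elements, which share the libraries of a column and are no replicates.

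All 11 elements lay inside the span of the gene that names their locus, by the RefSeq annotation of GRCm38.p6, of which mm10 is the browser name. Their names give mm10 coordinates whose end minus start is 265. The Hmga2 locus held 1 interval, chr10:120387135-120387400, 89.2 kb downstream of the Hmga2 start, carried by an E14-class and a Shadow element. The Nfia locus held 3 such intervals, chr4:97585192-97585457, chr4:97669871-97670136 and chr4:97880406-97880671, at 3.38, 88.1 and 299 kb downstream of the Nfia start. At Prdm16 the interval chr4:154599996-154600261, 36.7 kb downstream of the start, was carried by an E14-class and a Shadow element. The interval chr4:154499755-154500020, at 137 kb, was carried by a Shadow element without an E14-class partner in the table. Distances run from the middle of the interval to the gene start used for the RefSeq promoter windows. None of the 6 intervals overlapped such a window, so none is a promoter by that measure. The nearest start of any gene was that of the long noncoding RNA E130114P18Rik, 0.734 kb from the Nfia interval that lies closest to the Nfia start. Exons and introns were not used here, and lying in a gene does not show that an element acts on it.

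The Hmga2 element of the E14 class had a higher mean in NSC than in IPC, by a margin inside the range of the controls. Its activity in IPC was 1.63, 4.50, 3.13, 0.843 and 4.15 on days 13 to 17. In NSC it was 22.1, 7.44, 2.17, 11.7 and 1.46 on the same days. It thus stood above the scrambled median in 9 of 10 columns, with the single lower value in IPC on day 16. The value in NSC on day 13 was reached by 16 of 990 scrambled controls, that in NSC on day 14 by 8 of 993 and that in NSC on day 16 by 10 of 985. These 3 lay above the upper control limit. In IPC 1 of the 5 values did, that of day 14, which was reached by 10 of 991 controls. The IPC values on days 15 and 17 were reached by 77 of 981 and 34 of 990. The mean log2 activity was 1.34 ± 0.97 in IPC and 2.55 ± 1.61 in NSC (SD over 5 days, which is no replicate error). The NSC mean ranked as number 3 among the 900 E14-class elements with a value on all 5 days, and the IPC mean as number 161 of 901. Over all 10 columns the mean was 1.95, number 11 of 889.

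The Shadow element of the same Hmga2 interval was near or below the scrambled median almost throughout. In IPC it stood at 0.715, 0.676, 0.734, 5.44 and 0.00988 on days 13 to 17, and in NSC at 1.05, 0.125, 0.444, 0.271 and 0.434. The exception was IPC on day 16, the same column in which the E14-class element had its lowest value. Its mean log2 activity was -0.68, number 839 of the 847 Shadow elements with values in all columns. The E14-class element exceeded it in 9 of 10 columns, by 2.63 ± 2.41 on the log2 scale (SD over 10 columns). No other of the 759 pairs with the same coordinates and values in all columns had a larger mean difference.

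At Nfia the 3 E14-class elements differed more among themselves than the locus mean of 0.60 shows. The element at 88.1 kb was the most active of the locus. Its activity in IPC was 1.90, 1.12, 13.9, 0.0182 and 2.13 on days 13 to 17. In NSC it was 53.3, 2.21, 3.22, 1.30 and 2.25. All 5 NSC values lay above the scrambled median, and 4 of the 5 IPC values did. The highest value, in NSC on day 13, was reached by 5 of 990 scrambled controls and by 7 E14-class elements, itself included. The IPC value on day 15 was reached by 6 of 981 controls, while 972 of 976 controls and all other E14-class elements stood above the IPC value on day 16. The mean log2 activity was 0.64 ± 2.47 in IPC and 2.08 ± 2.09 in NSC (SD over 5 days), number 394 of 901 and number 19 of 900. The mean over all columns was 1.36. It was 0.85 without day 13, 1.00 without day 15 and 2.02 without day 16, and 1.51 and 1.40 without days 14 and 17.

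The Nfia element at 299 kb had means inside the range of the scrambled controls. It stood at 0.459, 2.62, 3.40, 2.50 and 1.02 in IPC and at 0.776, 1.41, 1.37, 0.750 and 3.04 in NSC on days 13 to 17. In IPC the 3 middle days were the high ones, and in NSC the last day was. Its mean of 0.63 lay at number 369 of 889, above the median of all E14-class elements (0.50).

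The Nfia element at 3.38 kb, the closest to the start of the gene, was the lowest of the 5. It stood at 2.61, 1.42, 0.409, 0.318 and 0.449 in IPC and at 3.08, 0.283, 0.847, 0.452 and 0.780 in NSC. Above the scrambled median it had days 13 and 14 in IPC and day 13 in NSC, and no value exceeded the upper control limit. Its mean log2 activity was -0.19, number 832 of 889.

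The Shadow elements at Nfia stayed within the range of the scrambled controls. At 3.38 kb the Shadow activity was 2.92, 1.15, 1.50, 0.890 and 1.14 in IPC and 0.499, 0.989, 0.960, 1.00 and 1.52 in NSC on days 13 to 17. At 88.1 kb it was 0.684, 1.05, 0.540, 2.60 and 0.647 in IPC and 1.03, 1.19, 0.652, 0.474 and 1.67 in NSC. At 299 kb it was 2.90, 0.830, 0.644, 0.509 and 1.69 in IPC and 1.78, 0.562, 0.827, 0.615 and 0.749 in NSC. None of these 30 values lay above the upper control limit. The E14-class element was higher than its Shadow partner by 1.32 ± 2.69 at 88.1 kb (9 of 10 columns) and by 0.57 ± 1.55 at 299 kb (7 of 10 columns), on the log2 scale. At 3.38 kb it was lower, by -0.51 ± 1.20, and was the higher member in 2 of 10 columns.

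Within IPC, the Prdm16 element of the E14 class had its highest values on the late days, and within NSC on day 13. Its activity in IPC was 1.47, 0.247, 0.892, 46.4 and 9.96 on days 13 to 17. In NSC it was 16.8, 1.50, 0.636, 7.26 and 2.57. No scrambled control of the 976 measured reached the IPC value on day 16, and 5 of 990 reached that on day 17. The NSC value on day 13 was reached by 22 of 990 controls. The mean log2 activity was 1.60 ± 2.82 in IPC and 1.72 ± 1.79 in NSC (SD over 5 days), number 109 of 901 and number 38 of 900.

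The Shadow element of the same Prdm16 interval also had its highest IPC values on the late days, with no like level in NSC. It stood at 0.619, 1.26, 0.340, 5.13 and 10.6 in IPC on days 13 to 17, and at 0.327, 0.421, 0.629, 0.444 and 1.79 in NSC. The IPC value on day 16 was reached by 53 of 976 controls and lay under the upper control limit of that column, 7.71. The IPC value on day 17 was reached by 5 of 990 controls, as that of its E14-class partner was. Of the 60 values of the 6 Shadow elements, this was the sole one above the upper control limit. Over all columns the E14-class element was higher by 1.46 ± 2.12 on the log2 scale (8 of 10 columns). This difference was 2.24 in NSC and 0.68 in IPC.

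The Shadow element at 137 kb in Prdm16, which has no partner, stood at 0.638, 2.91, 1.65, 0.182 and 2.49 in IPC and at 0.490, 0.522, 1.02, 4.08 and 0.720 in NSC. Its mean log2 activity was 0.20, close to that of the other Prdm16 Shadow element (0.20) and to the median of the Shadow class (0.26).

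Between the cell types, IPC was set against NSC within each day. For the Hmga2 element IPC minus NSC was -3.68, -0.71, 0.51, -3.64 and 1.45 on the log2 scale on days 13 to 17, with a mean of -1.22. NSC activity was 13.6 times the IPC activity on day 13 and 13.8 times on day 16, while IPC was the higher on days 15 and 17. For the Nfia element at 88.1 kb the differences were -4.74, -0.92, 2.08, -3.56 and -0.08, with a mean of -1.44. Both means lay low among E14-class elements, with 6.52% and 4.50% of them below. The range that held the middle 95% of scrambled controls ran from -1.39 to 1.25, so that the Nfia element lay outside it and the Hmga2 element inside. Without day 13 the means were -0.60 for the Hmga2 element and -0.62 for this Nfia element, and without day 16 they were -0.61 and -0.91. Leaving out day 14, 15 or 17 gave -1.34 to -1.88 for Hmga2 and -1.57 to -2.32 for this Nfia element. With 0.5 added in place of 0.1 before taking log2, the mean of this Nfia element was -1.03, and with 0.01 it was -1.86. The range of the controls changes with the amount added. In units of the control spread, counted from the control mean, the element stood at -2.07 (0.5), -2.24 (0.1) and -2.62 (0.01).

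For the Prdm16 element the sign of IPC minus NSC changed with the day. The differences were -3.43, -2.20, 0.43, 2.66 and 1.92 on days 13 to 17, so that IPC was lower on the first days and higher on the last. Their mean was -0.13. It was 0.70 without day 13, 0.39 without day 14, -0.27 without day 15, -0.82 without day 16 and -0.64 without day 17. The Shadow element of this interval had IPC higher on 4 of 5 days, with a mean of 1.44. For the Nfia elements at 3.38 and 299 kb the means were -0.04 and 0.32. Over the 5 E14-class elements IPC was higher in 10 of 25 comparisons within a day, against 53.1% of such comparisons over the whole class.

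Age changes were taken as the mean of days 16 and 17 minus the mean of days 13 and 14 within a cell type. The Prdm16 element averaged 4.44 on the late and -0.44 on the early days in IPC, a difference of 4.88 on the log2 scale. It was the largest of the 901 E14-class elements with values, and the scrambled range ended at 2.08. Leaving out any 1 of days 13, 14, 16 and 17 gave 3.77 to 5.98. In NSC the same element averaged 2.15 late and 2.38 early, a difference of -0.23. That difference was 1.47 without day 13, -1.93 without day 14, -0.96 without day 16 and 0.50 without day 17. The Shadow partner of this element averaged 2.90 late and -0.01 early in IPC. The difference of 2.92 ranked as number 11 of 863 Shadow elements. In NSC the partner averaged 0.02 late and -1.08 early. The neighbouring Shadow element at 137 kb did not share the late level in IPC, with -0.23 late and 0.57 early.

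The Hmga2 element averaged 1.00 late and 1.50 early in IPC, and 2.10 late and 3.69 early in NSC. The IPC difference of -0.49 lay well inside the scrambled range of -2.05 to 2.08. Its sign turned without day 14 (0.21) or day 16 (0.59), and it was -1.20 without day 13 and -1.58 without day 17. The NSC difference of -1.59 lay inside the scrambled range of -2.53 to 2.15. It depended on the days used, at -0.81 without day 13, -2.37 without day 14, -3.05 without day 16 and -0.14 without day 17. The Nfia element at 88.1 kb averaged 0.86 late and 3.47 early in NSC, a difference of -2.62 just beyond that range. Without day 13 this difference was -0.35, so that it rested on the single value of 53.3, and without day 14 it was -4.88. In IPC the same element differed by -1.61, which was 0.51 without day 16 and -3.73 without day 17. In IPC the Nfia element at 3.38 kb averaged -1.06 late and 1.02 early, a difference of -2.08 at the edge of the scrambled range of -2.05 to 2.08. In NSC it differed by -0.66, which was 0.86 without day 13. For the Nfia element at 299 kb the difference was 0.47 in IPC and 0.51 in NSC, both well inside the scrambled ranges. Its sign turned in IPC without day 13 (-0.67) or day 16 (-0.13) and in NSC without day 17 (-0.43), so that no direction with age is given for this element.

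The authors' deposited table also gives each element an adjusted p-value against the scrambled controls of its column, here counted at under 0.05. In single columns this also called from 6.16% (NSC, day 17) to 15.7% (IPC, day 13) of the scrambled controls themselves. In IPC, 1 of the 5 E14-class elements was called in at least 3 of 5 columns, that of Hmga2, against 15.3% of all E14-class elements. In NSC, 3 of the 5 were called, those of Hmga2, Prdm16 and Nfia at 88.1 kb, against 9.1% of the class. For Prdm16 and for Nfia at 88.1 kb, only the NSC call of day 13 lay above the upper control limit. These calls come from the values with which the loci were known, and nothing is read from the excess. Each of the 3 was called in exactly 3 NSC columns, of which day 13 was 1, so that 0 were called in 3 of the 4 columns left without it, and 1 without day 16 or without day 17. The Hmga2 call in IPC likewise held 3 columns, and 0 were left without day 14, 15 or 17. None of the 6 Shadow elements was called in at least 3 columns of either cell type, where 4.36% of the class in IPC and 1.78% in NSC were. The same rule called 1.21% of scrambled controls in IPC and 1.31% in NSC.

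By the upper control limit, 4 of 25 IPC values and 6 of 25 NSC values of the E14-class elements lay above it, against 9.82% and 5.72% of all values of the class. Of the 6 in NSC, 3 were those of day 13, at Hmga2, Nfia (88.1 kb) and Prdm16. For the Shadow elements 1 of 30 IPC values and 0 of 30 NSC values did, against 4.42% and 3.12% of the class. Within pairs, the E14-class element was the higher in 35 of 50 comparisons at these loci, against 58.4% over all 844 pairs. The mean difference over all columns was 0.28 in the middle pair of the 759 with complete values. Over the 10 columns the members of a pair did not follow each other in a common way. Pearson's r ran from -0.69 (Nfia at 299 kb) to 0.42 (Prdm16). It is a description over 10 columns, in each of which both members share the libraries.

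The active elements of the 3 loci did not share a single profile either. Over the 10 columns, Pearson's r of log2 activity was 0.62 between the Hmga2 element and the Nfia element at 88.1 kb, which both had their highest value in NSC on day 13. It was 0.08 between the Hmga2 and Prdm16 elements and -0.20 between that Nfia element and the Prdm16 element. Within Nfia the 3 pairs of elements gave 0.46, -0.45 and -0.20. Elements elsewhere in the genome came closer in profile. For the Hmga2 element these were elements in Phf21b (r = 0.86), 8.05 kb from Rad51c (0.85) and in Dlgap2 (0.83), of 888 compared. For the Nfia element at 88.1 kb they lay in Sfxn5 (0.88), in Clstn2 (0.87) and 0.06 kb from Pnliprp1 (0.86), of 886 compared. For the Prdm16 element they lay in Creb5 (0.82), Plagl1 (0.80) and Tns1 (0.80). With 10 columns and so many candidates, such values describe the table and no more.

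Of 49 genes listed as early temporal, glia-related or of the PRDM family, 12 were the nearest protein-coding gene of an E14-class element outside the intervals above, with 18 elements. None of the 18 was called in at least 3 columns of IPC or of NSC, where 15.3% and 9.1% of the class were. Their mean log2 activities ran from -0.28 to 1.00 with a median of 0.36 over the 17 with values in all columns, against 0.50 over the class. The highest lay 196 kb from Sox9, which encodes a transcription factor of neural stem cells and glia, at 0.81 in IPC and 1.20 in NSC. The 4 elements nearest to Zbtb20, which encodes a transcription factor that promotes astrocyte formation, stood between -0.28 and 0.69. Dach1, a transcription cofactor gene expressed in cortical progenitors, held 3 elements from -0.06 to 0.42. The element 27.9 kb from Prdm8, a relative of Prdm16, stood at 0.49.

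The limits of the windows fell in stretches with few elements. The nearest E14-class elements outside lay 158 kb above the Hmga2 window (mean log2 activity 0.86), 269 kb below the Nfia window (0.36) and 310 kb above the Prdm16 window (1.30). The members nearest to those edges were the Hmga2 element (1.95), the Nfia element at 3.38 kb (-0.19) and the Prdm16 element (1.66).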

How the data were processed

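The build mm10 and the trimming tool cutadapt are named, per the submitters' processing notes; an aligner, a way of counting barcodes and an activity model are not. The deposited activity statistic is a signal that is never negative, pooled by the authors over the 2 or 3 biological samples of a cell type and day. The deposited MAD score is the statistic minus the scrambled median, divided by 1.4826 times the median absolute deviation of the controls, as a recalculation showed (largest difference 4.66e-12). The deposited p-value is its upper-tail normal p after Benjamini-Hochberg adjustment within the column.

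Activity is the statistic over the median of the scrambled controls in that column, a median that ran from 0.164 (NSC, day 13) to 2.37 (NSC, day 17), and log2 of it was taken after adding 0.1, which understates differences of low values. Means needed a value in every column averaged. Samples were grouped by cell type and day from the titles. The planned motif search and exon positions were not run, since element sequences and exons were not used here. The members and gene lists were chosen with earlier results of these data known. By the rule for named elements, full values are given for the 2 most active and the lowest E14-class elements of a locus and their Shadow partners; those of the unpaired Shadow element were added. Python 3.11.15, pandas 2.3.3 and numpy 2.4.6 were used.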

Additional observations from a re-analysis of the deposited data

How the results depend on the processing

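No paired analysis was possible because the table pools the biological samples, and no replicate could be left out; ages were left out instead. Spread is that of the scrambled controls. With the authors' MAD score in place of log2 ratios, activity at Hmga2 was 6.84 and E14-class minus Shadow at Hmga2 was 7.12. IPC minus NSC at Prdm16 was 7.33 (against -0.13 on the log2 scale). Late minus early was -1.22 in IPC and -7.86 in NSC at Nfia, and 33.7 in IPC at Prdm16. The MAD score has another scale and gives single high values more weight. In units of the control spread, counted from the control mean, activity at Hmga2 went from 4.86 (log2) to 2.15 (MAD score). E14-class minus Shadow at Hmga2 was counted from 0, in units of the spread of a difference of 2 controls, and went from 5.24 to 1.80. In units of the control spread again, IPC minus NSC at Prdm16 went from -0.23 to 1.28. Late minus early in IPC went from 4.76 to 2.55 at Prdm16. At Nfia it is given per element, since the 3 elements are no replicates. In IPC it went from -2.01 to -0.15 at 3.38 kb, from -1.55 to -0.005 at 88.1 kb and from 0.48 to 0.02 at 299 kb. In NSC it went from -0.59 to -0.13 at 3.38 kb, from -2.34 to -5.76 at 88.1 kb and from 0.45 to 0.56 at 299 kb. Without day 13, IPC minus NSC was -0.020 at Nfia and 0.70 at Prdm16, and late minus early in NSC was 0.21 at Nfia and 1.47 at Prdm16. Without day 14, activity at Hmga2 was 1.79, its E14-class minus Shadow 2.33, and late minus early in IPC at Prdm16 3.79. Without day 16, activity was 0.90 at Nfia and 1.02 at Prdm16, late minus early -0.50 (Nfia) and 3.77 (Prdm16) in IPC and -3.05 (Hmga2) in NSC, and E14-class minus Shadow 0.96 at Prdm16. Without day 17, activity was 1.48 at Prdm16, late minus early in NSC -0.14 at Hmga2, and E14-class minus Shadow 2.43 at Hmga2. Of the 5 E14-class elements, 3 in IPC were called in at least 2 of 5 columns and 0 in at least 4; in NSC 0 were called in at least 4. With 3 of 4 columns needed, IPC had 0 calls without day 14, 15 or 17, and NSC had 0 without day 13, 1 without day 16 and 1 without day 17. NSC values above the control limit numbered 3 at the 99th percentile and 3 without day 13. IPC minus NSC at Prdm16 was 0.02 with a pseudocount of 0.5. Late minus early of Prdm16 in IPC and E14-class minus Shadow at Hmga2 and Prdm16 were above 0 under every alternative run; E14-class minus Shadow of the Nfia element at 3.38 kb was below 0 under every one.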
